A study of Mus musculus with 4 samples.

Results

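The immunoglobulin transcripts described here are those measured by the array's non-control probes whose gene name begins with Igh, Igk or Igl, without the unrelated or surrogate genes *Ighmbp2*, *Igll1* and *Iglon5*. They are 9 of the 39429 probes on the array, under 7 of its 31829 gene names, 4 from the heavy chain locus, 5 from the kappa light chain locus and 0 from the lambda light chain locus. By their names 4 of them lie in constant regions and 5 in variable segments. RNA came from *Ebf1*-/- fetal liver hematopoietic progenitor cells, that is Lin- cells of embryos from *Ebf1*+/- matings, which lack the transcription factor EBF1 in every group. The cells were infected either with the control retrovirus MDH1-PGK-GFP (EMPTY, 2 arrays) or with the same vector carrying *Mir195* (*Mir195*, 2 arrays) and were grown on OP9, a mouse bone marrow stromal cell line, with SCF, IL-7 and Flt3-ligand at 10 ng/mL each. All 4 arrays lay on one slide with the EMPTY arrays first, so slide position and virus cannot be told apart, and the labels do not say whether the arrays of a virus came from separate embryos or infections, so the p-values measure the spread between these arrays alone.

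An immunoglobulin is built of 2 kinds of chain. In the heavy chain locus and in the kappa and lambda light chain loci, a V segment is joined to short downstream segments. The RAG recombinase does this in developing B cells. The joined exon is spliced to a constant region, and that of the heavy chain sets the class of the antibody. The heavy chain locus is rearranged first, and its mu constant region is transcribed before any rearrangement. Unrearranged V segments can be transcribed as well, so that signal of a V probe does not by itself show a joined gene. In the RefSeq annotation the heavy chain locus lies on chromosome 12, the kappa locus on chromosome 6 and the lambda locus on chromosome 16, and no build is named for the array.

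The probes are single strands of 60 bases. The sequences of 6 of the named probes are shown because the detected probes have to be told from their undetected partners of the same name. Capitals mark the longest run that each shares with any other of the immunoglobulin probes considered here.
Ighg, probe A_55_P2066173, well above background on all 4 arrays: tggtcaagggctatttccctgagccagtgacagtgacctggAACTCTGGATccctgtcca
Ighg, probe A_55_P2021089, on none: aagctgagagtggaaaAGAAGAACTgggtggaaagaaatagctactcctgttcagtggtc
Igk-V32, probe A_55_P2132532, on 3 arrays: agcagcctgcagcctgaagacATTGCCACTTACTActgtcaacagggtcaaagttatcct
Igk-V32, probe A_55_P2132533, on none: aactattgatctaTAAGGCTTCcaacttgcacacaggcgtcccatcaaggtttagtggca
Igh-VJ558, probe A_55_P1960152, on none: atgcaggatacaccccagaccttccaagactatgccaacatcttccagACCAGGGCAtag
Igkv15-97, probe A_55_P2156264, on none: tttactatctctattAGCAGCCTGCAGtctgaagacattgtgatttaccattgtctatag
The Igk-V32 probe that was detected shares 14 bases with the probe of another kappa segment, IGKV10-94, and the Igkv15-97 probe shares 12 bases with that Igk-V32 probe. Neither Ighg probe shares more than 10 bases with any of the others.

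Of the 9 named probes, 2 were well above background on at least 1 array, which is a call of the scanner software on each spot, and 7 were so on none. Among all probes of the array 64.9% were well above background on at least 1 array and 57.3% on all 4. For the named probes these shares were 22.2% and 11.1%. Detection was 1 of 4 among the constant-region probes and 1 of 5 among the variable-region probes, and 1 of 4 in the heavy chain locus against 1 of 5 in the kappa locus. These counts are too small to set the classes apart. By the software's weaker call, that a spot is positive and significantly brighter than its background, 7 of the 9 were detected on at least 1 array.

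The constant-region probe that was detected, Ighg A_55_P2066173, is named for a predicted transcript similar to immunoglobulin gamma 2A, one of the chains made after class switching. Whether RNA measured by gamma probes came from a switched gene was not tested. Signals are given as log2 values relative to the 75th percentile of the same array. This probe lay at -5.77 and -4.80 with EMPTY and at -4.62 and -4.35 with *Mir195*. The *Mir195* arrays were the higher ones, without overlap, and EMPTY replicate 1 was the lowest. The log2 fold change of *Mir195* over EMPTY was 0.80 (standard error, abbreviated SE, 0.35, limma adjusted p = 0.648, by the Benjamini-Hochberg method over all tested probes). Without EMPTY replicate 1 it was 0.31.

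The other Ighg probe, A_55_P2021089, stands for the same predicted transcript and was not detected. It lay between -8.45 and -8.05 on the 4 arrays. C57BL/6 mice, to which the transgenic mice of the study were backcrossed, carry the gamma 2c gene in the place of gamma 2a.

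Igh-6 is an older name of *Ighm*, the mu constant region of IgM. Its probe A_55_P2214123, designed on an expressed sequence tag, lay at -7.00 and -6.90 with EMPTY and at -8.29 and -7.03 on the *Mir195* arrays, and it was not well above background on any of them. Igk-C is *Igkc*, the single constant region of the kappa light chain. Its probe A_55_P2208727, designed on a full-length cDNA without a classified product, lay between -8.26 and -7.89 and was likewise not detected. Since neither probe was well above background on any array, no fold change is given for them. By the weaker call the Igh-6 probe was detected on 3 arrays, all but *Mir195* replicate 1.

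Among the variable-region probes, the detected Igk-V32 probe A_55_P2132532 belongs to the kappa segment that RefSeq lists as *Igkv15-103*. It lay at -6.07 and -5.95 with EMPTY and at -5.85 and -5.65 with *Mir195*. On EMPTY replicate 1 it was not well above background. The *Mir195* arrays were the higher ones, with a log2 fold change of 0.26 (SE 0.14, limma adjusted p = 0.726). The probe entered the test through the *Mir195* arrays alone, and of the 363 tested probes that did so 64.5% had the *Mir195* arrays above without overlap and 0% below, so that its direction is no result about the segment. The signal was close to the lowest that the software called well above background, which was -6.51 to -6.12 on these arrays.

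The second Igk-V32 probe lay at -8.40 and -6.72 with EMPTY and at -7.19 and -6.97 with *Mir195*. The remaining variable-region probes were not detected either, and they lay between -8.66 and -6.25. Those are Igkv15-97, a segment listed as a pseudogene, Igk-V19-14, which is *Igkv6-14*, and Igh-VJ558. The last one bears the name of a family of heavy chain variable segments, whereas its description gives the epsilon constant region of IgE, so that its class is not settled. Counted as a constant region it would make 1 of 5 constant-region and 1 of 4 variable-region probes detected.

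**Figure D1:**
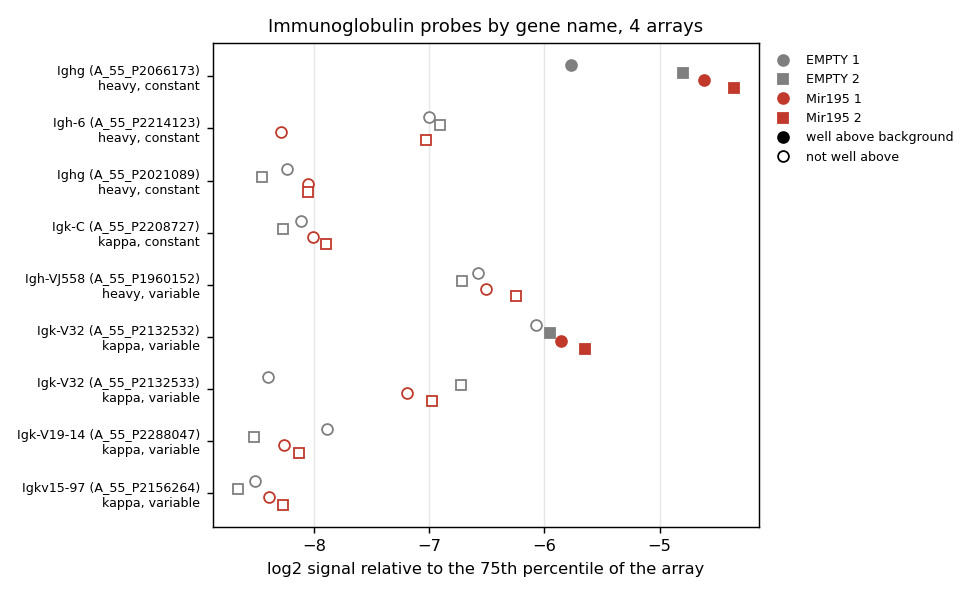
Signal of the 9 named immunoglobulin probes (x axis, log2 units from the 75th percentile of each array), with 1 point per array in grey for EMPTY and red for *Mir195*. Filled points are well above background, and only Ighg A_55_P2066173 is filled on all 4 arrays, with Igk-V32 A_55_P2132532 filled on 3.

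Both detected probes entered the test for differences between the viruses, which covered 23723 probes without outlier spots that both arrays of EMPTY or both of *Mir195* measured well above background. Over all of these, limma called 0% at an adjusted p under 0.05, with a lowest adjusted p of 0.101, and neither immunoglobulin probe was called. At an unadjusted p under 0.05 there were 6.25% higher and 2.1% lower with *Mir195*, none of them a named immunoglobulin probe. The *Mir195* arrays lay above the EMPTY arrays without overlap in 23.4% of all tested probes, as they did for Ighg, and below them in 14.4%, and the median log2 fold change over all tested probes was 0.01. In RNA of whole cultures, fewer cells of a type and less RNA per cell cannot be told apart. The number of arrays limits the precision, since 0.333 is the smallest two-sided p that an exact permutation of 2 against 2 arrays allows for a single probe.

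The array holds further probes for the same loci that carry no such gene name. For 136 probes the description names an immunoglobulin gene segment of the IMGT database, and 131 of these have a transcript accession in the place of a gene name. They were taken up after their values were seen and are given for comparison. Predicted transcripts described only as similar to an immunoglobulin were not used. Of the 136 probes, 29 (21.3%) were well above background on all 4 arrays and 45 (33.1%) on at least 1. Together with the named probes, 22 of 63 heavy chain probes (34.9%) and 8 of 82 light chain probes (9.76%) were well above background on all 4 arrays.

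Of the 9 constant-region probes among them, 7 were well above background on all 4 arrays. The mu probe A_51_P485421 (IGHM) lay at 4.23 and 4.21 with EMPTY and at 4.28 and 4.45 on the *Mir195* arrays, and was well above background on all 4. Its log2 fold change was 0.15 (SE 0.13, limma adjusted p = 0.865). The same gene was therefore well above background with both viruses by this probe and on no array by the named Igh-6 probe.

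The delta probe A_51_P266248 (IGHD), for the constant region next to mu, lay at -2.02 and -1.58 with EMPTY and at -1.44 and -1.31 on the *Mir195* arrays, at a log2 fold change of 0.42 (SE 0.19, limma adjusted p = 0.663), which was 0.20 without EMPTY replicate 1. The gamma 2c probe A_55_P2034655 (IGHG2C) lay at -3.18 and -2.61 with EMPTY and at -2.33 and -1.88 with *Mir195*, with a log2 fold change of 0.79 (SE 0.26, limma adjusted p = 0.554), or 0.51 without EMPTY replicate 1. In these probes and in mu the *Mir195* arrays lay above the EMPTY arrays without overlap, beside 23.4% of all tested probes. None of them passed the adjusted threshold.

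The gamma 3 probe A_55_P2118876 (IGHG3) overlapped between the viruses. It lay at -3.47 on EMPTY replicate 1 but at -1.99 on EMPTY replicate 2, and at -2.41 and -1.86 with *Mir195*. Its log2 fold change was 0.59 (SE 0.53, limma adjusted p = 0.871) and turned to -0.15 without EMPTY replicate 1. The gamma 1 probe was not detected.

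The tested light chain constant regions were those of lambda, and their 3 probes had negative log2 fold changes. The IGLC2 probe A_55_P2057283 lay at -3.95 and -4.28 with EMPTY and at -4.43 and -4.60 on the *Mir195* arrays, so that the *Mir195* arrays were the lower ones, with a log2 fold change of -0.40 (SE 0.16, limma adjusted p = 0.625). The IGLC3 probes A_51_P483576 and A_55_P2145224 each had a log2 fold change of -0.47, with adjusted p of 0.749 and 0.765 from limma, and overlapped between the viruses. With the normexp background correction IGLC2 and the second of the IGLC3 probes changed direction, to 0.04 and 0.05, and the first IGLC3 probe came to -0.02. The probe of IGLC1 was well above background on 1 array, and the lambda variable segments had 2 probes, neither of them detected.

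**Figure D2:**
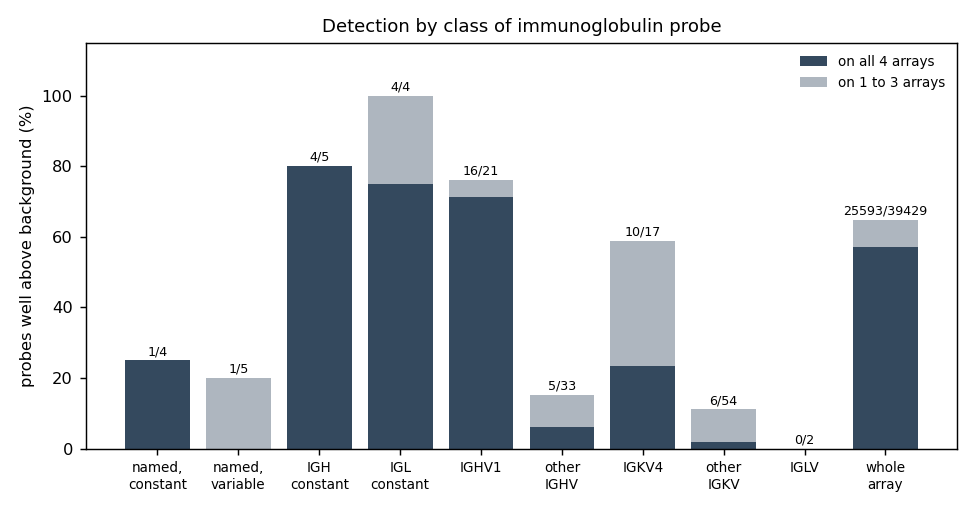
Share of probes well above background (y axis, percent) for each class of immunoglobulin probe and for the whole array, with the dark part for all 4 arrays and the light part for 1 to 3 arrays, and with the number detected on at least 1 array over the number of probes above each bar. The first pair of bars are the probes with an immunoglobulin gene name, and IGHV1 has 16 of 21 probes detected, beside 5 of 33 for the other heavy chain segments.

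Among the variable segments, most probes detected on all 4 arrays belonged to one family. IGHV1, also called J558, is the largest family of mouse heavy chain variable segments. It had 21 probes, of which 15 (71.4%) were well above background on all 4 arrays and 16 (76.2%) on at least 1. The other heavy chain variable segments had 33 probes, of which 2 (6.06%) were well above background on all 4 arrays. The kappa variable segments had 71 probes, of which 5 (7.04%) were so, and 4 of these 5 belonged to the IGKV4 family. Of the 11 kappa variable probes detected on 1 to 3 arrays, 8 were above background on exactly 1 array.

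In all 15 IGHV1 probes that were well above background on every array the *Mir195* arrays lay above the EMPTY arrays without overlap, beside 23.4% of all tested probes, with log2 fold changes of 0.53 to 0.78 and a median of 0.70. A further IGHV1 probe, IGHV1-63, entered the test through the *Mir195* arrays alone. Of all tested probes that did so, 64.5% had the *Mir195* arrays above without overlap and 0% below. The direction of IGHV1-63 is therefore no result about the segment. Of the 16 with it, 15 had an unadjusted p under 0.05 from limma, beside 6.25% of all tested probes that did so and were higher. None passed the adjusted threshold, the lowest adjusted p being 0.530. With a stricter detection filter, which left IGHV1-63 out, 14 of 15 had an unadjusted p under 0.05 from limma, beside 6.57% of all probes tested so. The probes share an array and, in part, sequence, and are not replicates of each other. EMPTY replicate 1 was the lowest array for all 16 probes, as it was for 32.6% of all tested probes. Over the 16 probes the array medians were -2.55 and -1.97 for EMPTY and -1.71 and -1.45 for *Mir195*, so that the EMPTY arrays stood apart from each other as well, with a median difference of 0.46 per probe. Without EMPTY replicate 1 the log2 fold changes were 0.25 to 0.56 with a median of 0.45, and 2 of the 16 had an unadjusted p under 0.05, beside 2.35% of all tested probes that were higher. Whether the array itself or the virus set this difference was not tested.

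IGHV1-23 A_55_P2075510 lay at 0.47 and 0.89 with EMPTY and at 1.52 and 1.39 with *Mir195*. Its log2 fold change was 0.78 (SE 0.18, limma adjusted p = 0.530). IGHV1-63 A_66_P102143 had the highest fold change, 0.84 (SE 0.24, limma adjusted p = 0.533), from -6.12 and -5.49 on the EMPTY arrays to -5.06 and -4.88 with *Mir195*. On EMPTY replicate 1 this probe was not well above background, so that it entered the test through the *Mir195* arrays alone. Without EMPTY replicate 1 its log2 fold change was 0.52. With the stricter filter, which left it out, the highest log2 fold change of the 15 remaining probes was 0.78.

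**Figure D3:**
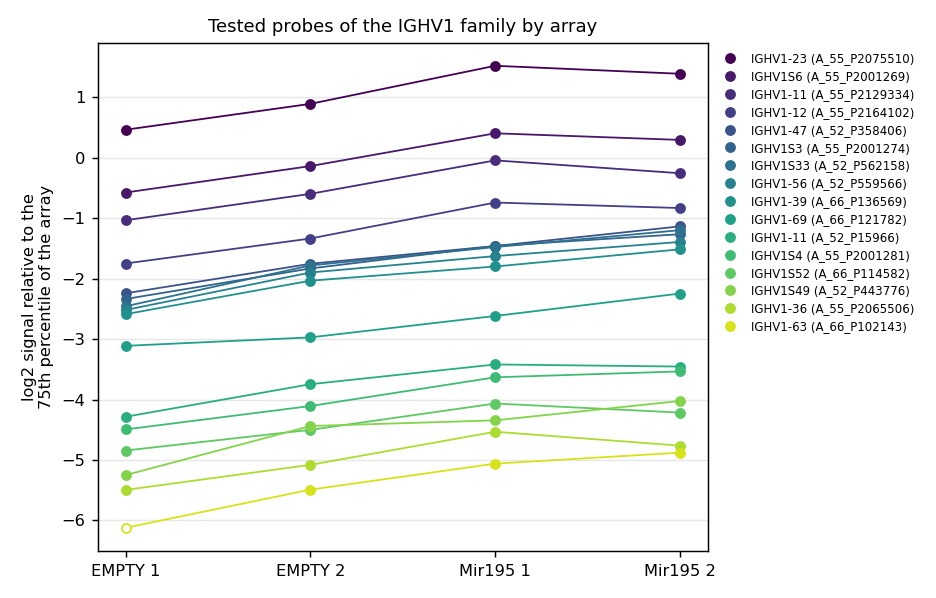
Signal (y axis, log2 units from the 75th percentile of each array) of the 16 tested IGHV1 probes on each of the 4 arrays (x axis), with 1 line per probe and an open point where the probe was not well above background. In every line the *Mir195* points lie above the EMPTY points, and EMPTY replicate 1 is the lowest point of every line.

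Because the IGHV1 segments resemble each other, the sequences of some of their probes are shown, with the longest run shared with another immunoglobulin probe in capitals.
IGHV1-23, probe A_55_P2075510, on all 4 arrays: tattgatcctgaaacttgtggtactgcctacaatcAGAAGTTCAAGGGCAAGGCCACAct
IGHV1-63, probe A_66_P102143, highest fold change: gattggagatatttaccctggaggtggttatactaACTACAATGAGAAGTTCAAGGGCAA
IGHV1-69, probe A_66_P121782: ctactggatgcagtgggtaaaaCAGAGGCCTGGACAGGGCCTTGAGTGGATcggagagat
IGHV1S52, probe A_66_P114582: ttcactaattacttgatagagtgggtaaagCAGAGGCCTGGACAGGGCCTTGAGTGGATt
IGHV1-36, probe A_55_P2065506, on all 4 arrays: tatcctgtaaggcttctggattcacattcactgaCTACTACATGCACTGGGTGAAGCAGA
IGHV1-31, probe A_52_P320761, well above background on no array: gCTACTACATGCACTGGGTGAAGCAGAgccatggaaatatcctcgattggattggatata
No 2 of the 16 tested probes have the same sequence. Of their 120 pairs, 8 share a run of at least 20 bases, which involves 12 of the 16 probes, and the longest run is the 29 bases of IGHV1-69 and IGHV1S52. IGHV1-31, which was detected on all 4 arrays by the weaker call alone, shares 26 bases with IGHV1-36, itself at -5.50 and -5.08 with EMPTY and at -4.53 and -4.76 with *Mir195*. How much of a probe's signal came from RNA of a related segment was not tested.

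Outside IGHV1, few variable segments were tested. The 2 other heavy chain probes, IGHV10-3 and IGHV5-17, had log2 fold changes of -0.29 and -0.15. Over the 7 tested kappa variable probes the log2 fold changes ran from -0.20 to 0.16, with a median of -0.04, and 6 of the 7 overlapped between the viruses, beside 62.3% of all tested probes. The median was 0.22 with normexp and 0.21 without *Mir195* replicate 1. No test compared these classes with each other.

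**Figure D4:**
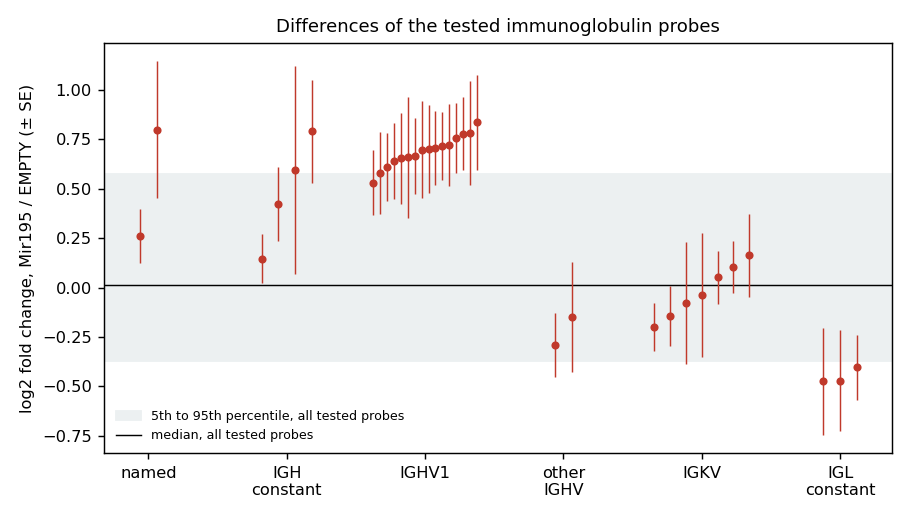
Log2 fold change of *Mir195* over EMPTY (y axis) with its standard error for each tested immunoglobulin probe, by class, where the black line is the median of all 23723 tested probes and the grey band their 5th to 95th percentile, from -0.37 to 0.58. The 16 IGHV1 probes lie between 0.53 and 0.84, and the 3 lambda constant probes lie between -0.47 and -0.40, of which IGLC2 and one IGLC3 probe changed direction with normexp.

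The partners of the heavy chain in the pre-B cell receptor had 10 tested probes, with 5 higher and 5 lower on the *Mir195* arrays and 0 called. Over all 23723 tested probes 12585 were higher and 11138 lower, which is the background for this and the later gene lists. *Cd79b*, one of the signalling chains of the receptor, lay at -1.18 and -0.96 with EMPTY and at -0.26 and 0.49 with *Mir195*. Its log2 fold change was 1.18 (SE 0.28, limma adjusted p = 0.530). Over the other settings it ran from 0.81 to 1.56, the highest being without *Mir195* replicate 1, which leaves 1 array of that virus. The other signalling chain, *Cd79a*, was well above background with EMPTY alone, with means of -6.16 for EMPTY and -6.53 for *Mir195*. The lowest measurable signal of the *Mir195* arrays puts it at least 1.01-fold higher with EMPTY (limma adjusted p = 0.663), but it entered the test through the EMPTY arrays alone, and with normexp the direction turned, to a log2 fold change of 0.23.

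The surrogate light chain, which holds the place of the light chain at this stage, had log2 fold changes of 0.07 for *Vpreb1* and -0.19 for *Vpreb2*. No probe was found for *Igll1* by its symbol. The log2 fold change of *Vpreb3* was 0.01. Each of the 3 *Vpreb* genes changed direction under at least 1 other setting. *Vpreb2* came to 0.18 with normexp, and *Vpreb1* and *Vpreb3* came to -0.02 and -0.09 with median scaling. The signalling molecules downstream of the receptor had log2 fold changes of -0.10 for *Blnk*, -0.17 for *Syk*, 0.11 and 0.15 for the probes of *Btk*, and -0.05 for *Lyn*.

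The V(D)J recombination genes had 15 tested probes, and 10 of these were higher, 5 were lower and 0 were called. Among all 23723 tested probes 12585 were higher and 11138 lower. *Rag1* and *Rag2* encode the recombinase itself. The *Rag1* probes lay at -2.20 and -2.24 on the EMPTY arrays against -1.87 and -1.54 on the *Mir195* arrays, and at -6.01 and -5.67 against -5.17 and -5.14, with log2 fold changes of 0.52 and 0.68. The *Rag2* probes had log2 fold changes of 0.30 and 0.32, the first of which was 0.13 without EMPTY replicate 1. In all 4 *Rag* probes the *Mir195* arrays lay above the EMPTY arrays without overlap, beside 23.4% of all tested probes. *Dntt*, which adds bases at the joints, lay at 0.03 and 0.06 on the EMPTY arrays against -0.77 and -0.23 with *Mir195*, at a log2 fold change of -0.54. Adjusted p for these probes ranged from 0.530 to 0.739 in limma.

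Regulators of the immunoglobulin loci had 30 tested probes, 18 higher and 12 lower, with 0 called, beside 12585 higher and 11138 lower among all tested probes. The probe of *Ebf1*, the gene disrupted in these cells, was well above background on all 4 arrays, at 2.01 and 1.89 with EMPTY and 1.85 and 2.03 with *Mir195*, and whether it lies in the deleted part is not given in the sources used here.

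Markers of other cells the cultures could hold were counted in the same way, and limma called 0 probes in every list. Their counts stand beside 12585 higher and 11138 lower among all 23723 tested probes. Among plasma cell markers 2 of 7 tested probes were higher and 5 lower, with a summed signal of 74910 to 88790 on the EMPTY arrays and 51390 to 56250 with *Mir195*. One of them is *Jchain*, the joining chain of secreted IgM and IgA, at 5.63 and 5.44 with EMPTY and 4.88 and 5.06 with *Mir195*. Its log2 fold change was -0.57 (SE 0.14, limma adjusted p = 0.530). The mature B cell markers had 10 tested probes, 4 higher and 6 lower. Without EMPTY replicate 1, 2 were higher and 8 lower. Without EMPTY replicate 2, and likewise without *Mir195* replicate 1, 6 were higher and 4 lower. Their summed signal was 124000 to 136000 with EMPTY and 89780 to 89840 with *Mir195*. Most of it came from *Ly6d*, at 73245 to 76146 with EMPTY and 51149 to 55317 with *Mir195*. *Cd74* followed, at 29136 to 38052 and 19259 to 22177, whereas *Ms4a1* lay at 24.1 to 30.7 over the 4 arrays. The sum of this list thus reflects mainly *Ly6d* and *Cd74* and is no measure of mature B cells. These sums are not scaled, and the 75th percentile itself was 1029 to 1127 on the EMPTY arrays and 902.5 to 921.9 on the *Mir195* ones.

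Of the T lineage markers 3 of 14 tested probes were higher and 11 lower, and 6 were higher without EMPTY replicate 2. Among them *Cd8b1*, which was not well above background on *Mir195* replicate 2, had a log2 fold change of -1.04 (SE 0.23, limma adjusted p = 0.530), which was -0.15 with normexp. *Cd8b1* entered the test through the EMPTY arrays alone. The 792 tested probes that did so had the *Mir195* arrays below without overlap in 35.5% and above in 0.758%. Its direction is therefore no result about the gene. NK and innate lymphoid markers had 1 of 12 higher and 11 lower, but 5 of 12 higher without EMPTY replicate 1. *Ncr1*, a receptor of NK cells, lay at -1.74 on EMPTY replicate 1 against -3.03 on EMPTY replicate 2, and at -2.95 and -2.39 with *Mir195*. EMPTY replicate 1, the lowest array for the IGHV1 probes, was thus the highest for *Ncr1*. The summed signal of the list was 35410 to 43480 on the EMPTY arrays and 25020 to 27070 with *Mir195*.

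For myeloid markers 10 of 14 tested probes were higher with *Mir195*, those of *Itgam*, *Csf1r*, *Mpo*, *Lyz2* and *Cd14*. The 4 lower ones had log2 fold changes of -0.28 for *Ly6g*, -0.27 for *Fcgr1*, -0.55 for *Fcgr3* and -0.10 for *Elane*. For OP9 stroma markers 7 of 7 were higher, but 1 of 7 without *Mir195* replicate 2, and their summed signal was 9754 and 9788 with EMPTY against 7517 and 13900 with *Mir195*. The erythroid markers had 0 of 4 higher, and 2 of 4 without *Mir195* replicate 2. *Dcn* and *Lum* of the stroma list and *Alas2* and *Klf1* of the erythroid list were well above background on no array. The part of these cells in the immunoglobulin signals was not tested.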

How the data were processed

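RNA (about 100 ng per sample) of 4 samples was measured on single-colour arrays. The intensity of every spot was deposited as given by Agilent Feature Extraction (version 11.5.1.1 in the submitters' processing notes, 9.1.3.1 in the file headers) and a table of log2 values normalized by the authors to the 75th percentile. Each deposited column of that table correlated with the values used here at 0.998, and its medians were -4.45 to -4.29. The detection call (well above background) came from the scanner software.

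Here, the log2 processed signal minus the 75th percentile of its array was used, and spots of a probe (43020 non-control spots in all) were averaged without outlier spots. Between 23658 and 24672 probes of an array were well above background, and no spot was saturated. Probes were named by RefSeq accession (26055 of 39429, GRCm38.p6) or synonym. limma 3.58.1 (R 4.3.3) with Benjamini-Hochberg adjustment compared *Mir195* with EMPTY without a block. The code was tested on simulated data.

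Named in the text were all constant-region probes, all named probes detected on any array, the receptor partners, *Rag1*, *Rag2* and *Dntt*, and list genes without overlap and with a log2 fold change of at least 1. *Jchain*, *Ebf1* and the probes known by description only were named after their values were seen. The members and gene lists were chosen with earlier results of these data known. Alternatives were other scalings, normexp (offset 50), the authors' table, other filters, another variance model, a replicate block, leaving out each array, the methods' t-test and the weaker detection call.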

Additional observations from a re-analysis of the deposited data

How the results depend on the processing

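Neither named immunoglobulin probe was called under any alternative that tested it, and the log2 fold changes were 0.31 to 1.29 for Ighg and 0.16 to 0.36 for Igk-V32. Over all tested probes the count of calls was 0 as reported, 3 with median scaling, 5 with the replicate number as a block, and 0 to 900 when each array was left out in turn, with 900 without *Mir195* replicate 1 and 3 without *Mir195* replicate 2. The methods' t-test gave 1133 probes before and 0 after Benjamini-Hochberg adjustment. Same-numbered arrays deviated with a correlation of -0.10 and are not taken as pairs. The block called 0 immunoglobulin probes. The crossed pairing, chosen after seeing the data, called 0 probes in all and 0 immunoglobulin probes. With the weaker detection call 7 named probes were detected, 3 of them constant-region and 4 variable-region. Directions changed as follows. With normexp IGLC2 was 0.035, the IGLC3 probe A_55_P2145224 0.055, *Vpreb2* 0.177 and *Cd79a* 0.231. With median scaling *Vpreb1* was -0.023 and *Vpreb3* -0.087, and with quantile normalization *Vpreb3* was -0.055. Leaving out each array in turn gave -0.042 to 0.191 for *Vpreb1*, -0.211 to 0.232 for *Vpreb3*, -0.163 to 0.056 for *Lyn* and -0.147 to 1.34 for IGHG3, which was negative without EMPTY replicate 1. The cause was not tested. All IGHV1 probes stayed positive under each alternative, with medians of 0.45 to 0.94. Counts of marker probes with each array left out were added after seeing the data. Signals near background limit the named probes.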
